A study of Rattus norvegicus with 40 samples.

Results

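Heat shock proteins and their DnaJ co-chaperones were followed in rat liver across the dose groups of an oral study of GW7647. The set held every gene whose symbol in the array's annotation began with Hspa, Hspb, Hspd, Hspe, Hsph, Hsp90 or Dnaj. This rule matched 70 symbols, and 64 of them, out of 13438 genes tested, had a probe set that named no other gene. For the 25 members with several probe sets, the brightest by its average across the 40 arrays was used. The other 6 symbols, among them Hsp90aa1 and Hspa1b, were found only on probe sets that list several genes. By the compartment in which the protein mainly works, 39 members were assigned to the cytosol (nuclear proteins included), 12 to the endoplasmic reticulum (ER), 8 to mitochondria and 5 to other membranes or to no settled place. The prefix Hspb also takes in Hspbp1 and Hspbap1, which are not small heat shock proteins.

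All animals were adult male Sprague Dawley SD:CD rats, and GW7647 is a synthetic agonist of PPAR-alpha, a nuclear receptor for fatty acids and a regulator of their oxidation. For 4 days 1 gavage a day gave 10 rats vehicle alone (the labels do not name the solvent), 10 rats GW7647 at 0.1 mg/kg (the low dose), 10 rats 1 mg/kg (the middle dose) and 10 rats 10 mg/kg (the high dose). Liver was taken 24 h after the last dose, and the total RNA of each rat was hybridised to 1 Affymetrix array. The question was how far the messages of the folding machinery differed from vehicle at each dose, compartment by compartment.

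Chaperones bind proteins that are not folded and keep them from clumping. Hsp70 proteins do this in cycles of ATP use that J domain proteins (the DnaJ genes) start and nucleotide exchange factors end, Hsp90 proteins act later on near-native clients such as steroid receptors, and small heat shock proteins hold unfolded proteins without using ATP. Each compartment has its own set: Hspa8 and Hsp90ab1 in the cytosol, Hspa5 (BiP) and Hsp90b1 (Grp94) in the ER, and Hspa9 with the Hspd1-Hspe1 chaperonin in the mitochondrial matrix. Heat shock factor 1 drives many of these genes from heat shock elements, while the unfolded protein response of the ER drives others from the ER stress response element. In rodent liver PPAR-alpha agonists are known for raising mitochondrial and peroxisomal enzymes.

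The scale of the deposited log2 values rose with dose, which bears on every change below. Whether the dose groups were hybridised or normalized in separate runs is not given in the sources used here, and if they were, run and dose cannot be told apart. The array medians averaged 2.48 for vehicle and 2.47, 2.60 and 2.71 for the low, middle and high doses, and the median log2 change over all genes was -0.03, 0.16 and 0.26 from the low dose upward. A member was therefore said to rise or fall only where its Benjamini-Hochberg adjusted p was under 0.05 over all genes, in the same direction, both on the deposited scale and on the quantile scale, that is, once the arrays had been quantile normalized. On the quantile scale the median change at the high dose was -0.02. The 24 poly-A spike probe sets averaged 5.57, 5.84, 6.22 and 6.56 from vehicle to the high dose, and the gap between 3′ and 5′ actin probe sets averaged 2.78, 2.85, 3.11 and 3.22. Within the middle dose, arrays 1 to 4 averaged 5.46 on the spikes and arrays 5 to 10 averaged 6.72. Arrays 8 and 9 of the low-dose group had the lowest upper quartiles of all arrays. Hepatocyte markers, 6 of 7 listed genes measured, averaged 12.43, 12.42, 12.46 and 12.41 from vehicle to the high dose, with 1 that fell at the high dose. Of 7 measured Kupffer cell markers 6 fell at the high dose, and their mean level ranged over the arrays from 6.58 to 7.39 on vehicle and from 5.81 to 6.93 at the high dose. At that dose 2 of 4 cholangiocyte markers, 1 of 6 stellate cell markers and the 1 measured red cell marker rose, 1 of 5 endothelial and 1 of 6 stellate cell markers fell, and none of 4 lymphocyte or 2 neutrophil markers passed on both scales. In whole liver, fewer cells of a type and less RNA per cell cannot be told apart, and the part of these shifts in the results below was not tested.

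No member passed the threshold at the low dose on either scale by limma, where 0.0819% of all genes rose and 0.00744% fell (0.0149% were lower on the deposited scale alone). At an unadjusted p under 0.05, 1 of the 64 members passed on the deposited scale and 2 on the quantile scale. Of all 13438 genes 587 and 548 did so on these scales. At the middle dose 6 of 64 members rose (9.38%) and 1 fell (1.56%), against 11.1% and 3.37% of all genes. There 18 were higher and 1 lower on the deposited scale (background 38.2% and 3.37%), and 6 and 5 on the quantile scale (background 11.1% and 12.1%). At the high dose 13 rose (20.3%) and 5 fell (7.81%), against 20.4% and 7.69% of all genes. The shares of the set as a whole were thus near the background at both doses, and its median change at the high dose was 0.25 (deposited) and -0.04 (quantile), beside 0.26 and -0.02 for all genes. On the deposited scale alone 32 members were higher and 5 lower at the high dose (background 56.5% and 7.69%), while on the quantile scale alone 13 were higher and 18 lower (background 20.4% and 24.4%). The comparisons with vehicle share the vehicle arrays.

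A short list of members rose, with 4 bright genes at its head. Hspb1 rose most, and Hspe1, Hspd1 and Hsp90ab1 followed with nearly equal changes. By compartment, 7 of 39 cytosolic members rose (17.9%) and 3 fell (7.69%) at the high dose. In the ER 2 of 12 rose (16.7%) and 1 fell (8.33%), and in mitochondria 4 of 8 rose (50%) and 1 fell (12.5%). None of the 5 others passed on both scales, and of all genes 20.4% rose and 7.69% fell. Among members that reached log2 5 in a group, 3 of 19 cytosolic ones rose and 2 fell. In the ER 2 of 10 such members rose and 1 fell, and in mitochondria 4 of 8 rose and 1 fell. Of all such genes 26.2% rose and 9.41% fell. Median changes at the high dose on the deposited scale were 0.23 for the cytosol, -0.07 for the ER, 0.54 for mitochondria and 0.32 for the others. After quantile normalization they were -0.03, -0.34, 0.25 and 0.01. At the middle dose 3 of 39 cytosolic members rose (7.69%) and 1 fell (2.56%), and none of the 12 in the ER or the 5 others passed on both scales. In mitochondria 3 of 8 rose (37.5%) and none fell, beside 11.1% and 3.37% of all genes. In the same order of compartments, median changes at that dose were 0.16, 0.13, 0.36 and 0.27 on the deposited scale. On the quantile scale they were -0.05, -0.06, 0.12 and 0.02. Whether the compartments differ from each other was not tested.

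**Figure D1:**
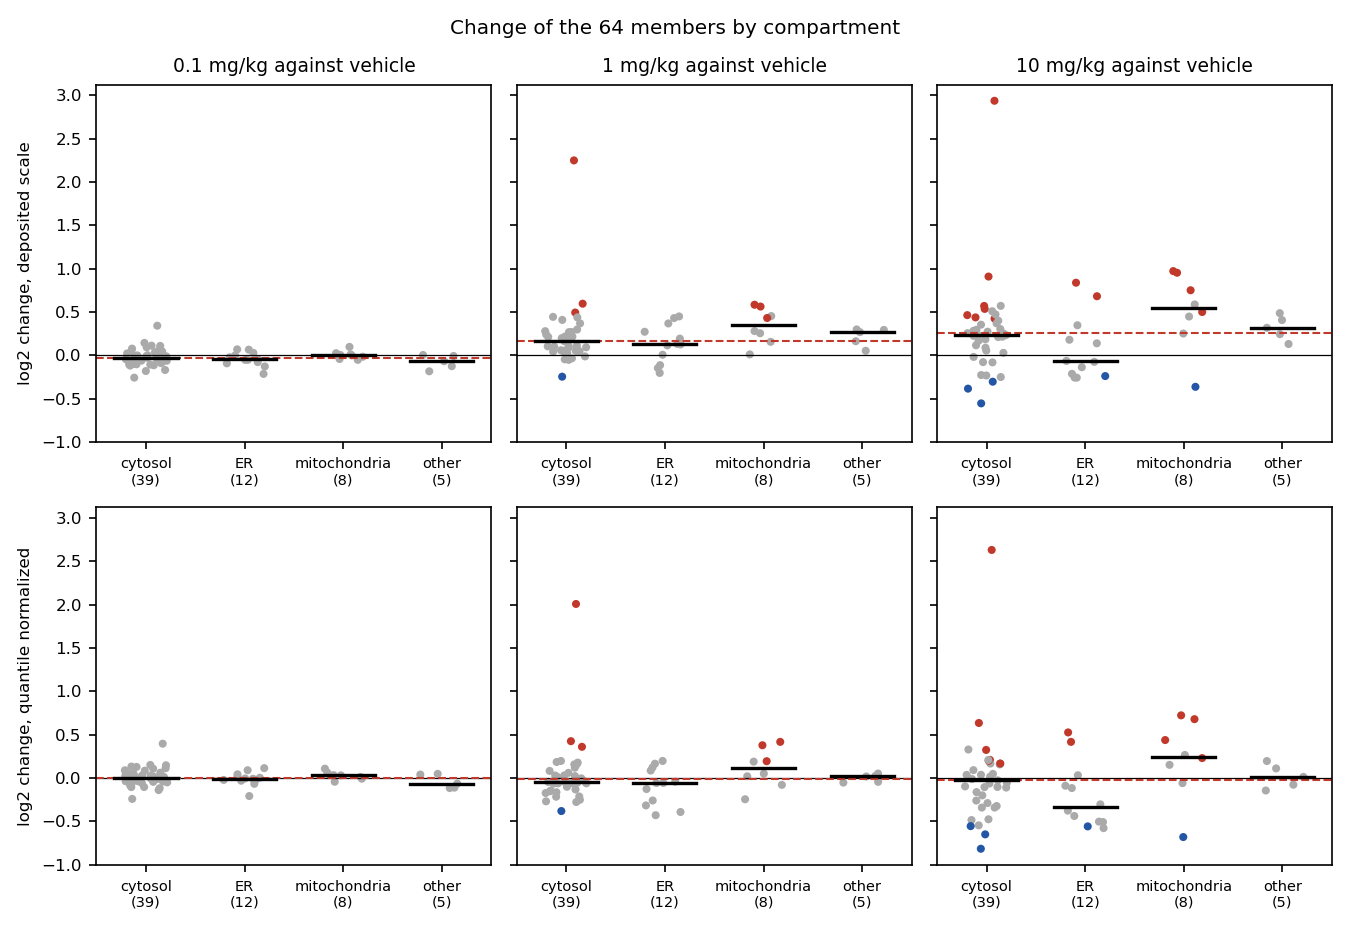
The vertical axis is the log2 change of each of the 64 members against vehicle, on the deposited scale (upper row) and on the quantile scale (lower row), by compartment with the number of members in brackets and with 1 column for each dose. Each point is a member, red where it rose and blue where it fell on both scales and grey otherwise, the black bar is the compartment's median and the dashed red line the median of all genes. Hspb1 lies far above the rest at the middle and high doses, and the ER median at the high dose is -0.07 in the upper and -0.34 in the lower row.

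Hspb1 (Hsp27, probe set 1367577_PM_at), a small heat shock protein that also binds actin, had the largest change of the set. Its lowest, median and highest deposited log2 values were 4.61, 5.01 and 5.52 on the vehicle arrays and 4.67, 5.35 and 5.99 at the low dose. They were 6.94, 7.33 and 7.69 at the middle dose and 7.26, 8.05 and 8.61 at the high dose. All arrays at the middle and high doses stood above every vehicle array, while at the low dose only 3 of 10 did. The change was 0.34 (SE 0.15, adjusted p = 1) at the low dose, 2.25 (SE 0.15, 4.75-fold, adjusted p = 4.14e-15) at the middle dose and 2.94 (SE 0.15, 7.66-fold, adjusted p = 1.88e-19) at the high dose. After quantile normalization it was 2.01 at the middle dose and 2.63 at the high dose. Within the middle-dose group the change was 2.41 over arrays 1 to 4 and 2.14 over arrays 5 to 10, so that both sets of arrays lay well above vehicle. Muscle is a rich source of small heat shock proteins, and all 5 muscle markers had group means below the array median in every group. At the high dose 4 of the 5 were higher on the deposited scale, and 1 was higher and 1 lower on the quantile scale, so that 1 rose. Whether muscle had a part in the Hspb1 values was not tested.

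Among the 150 bases before the RefSeq start site of Hspb1 (GRCr8, chr12:26432302-26432451, minus strand, positions -150 to -1) were 2 matches to the shortest form of a heat shock element, which is shown because this gene moved most. The capitals mark the matches.
Hspb1 upstream: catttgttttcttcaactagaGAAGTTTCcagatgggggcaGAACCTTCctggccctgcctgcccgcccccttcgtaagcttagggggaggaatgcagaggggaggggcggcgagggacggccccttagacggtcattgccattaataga
The form searched was GAANNTTC or TTCNNGAA, each being its own reverse complement, in a window from 250 bases before to 50 after the start. RefSeq promoters (GRCr8) were found for 54 of 64 members, and 15 of them (27.8%) held a match, as did 15.9% of all 33469 promoters. Of the 13 members that rose at the high dose, 9 had a promoter and 4 of these a match, namely Hspb1, Hspd1, Hspe1 and Hspa4l. The matches of Hspd1 and Hspe1 are the same bases in overlapping windows, counted for each gene. All 5 members that fell had a promoter and none of these a match. Of the 46 members that did not pass on both scales, 40 had a promoter and 11 a match. A match is a run of letters and does not show that a factor bound there.

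No other small heat shock protein changed by as much. Hspb8, which works with the autophagy co-chaperone Bag3, was bright, with means of 8.19 ± 0.25 on vehicle, 8.19 ± 0.19, 8.30 ± 0.21 and 8.31 ± 0.21 at the rising doses (SD, n = 10 in each group). Its arrays overlapped throughout, and its change at the high dose was 0.12 (SE 0.096, adjusted p = 0.296) on the deposited scale and -0.20 (adjusted p = 0.0848) on the quantile scale. Hspb2 rose at the high dose and Hspb3, a muscle small heat shock protein, fell at the middle and high doses, but both were dim. Hspb3 averaged 2.93 on vehicle and 2.63 at the high dose, a change of -0.30 (adjusted p = 0.000326) and of -0.55 on the quantile scale. GCRMA holds dim probe sets near a floor, so that folds there depend on its background correction. Hspb6 changed by -0.23 (adjusted p = 0.0984) and Hspb7 by -0.08 (adjusted p = 0.493) on the deposited scale at the high dose, and by -0.47 and -0.32 on the quantile scale, with adjusted p of 0.000988 and 0.00616. Hspb9, in rodents a testis gene, changed by 0.09 and -0.16 on the 2 scales without passing on either.

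Hsp90ab1, the constitutive cytosolic Hsp90, rose with dose. Its probe set 1375336_PM_at read 9.36, 9.63 and 9.88 (lowest, median and highest) on vehicle and 9.41, 9.66 and 9.88 at the low dose. At the middle dose the values were 10.06, 10.28 and 10.31, and at the high dose they were 10.33, 10.47 and 10.91. On the deposited scale every array at the middle dose lay above every vehicle array, and every array at the high dose above every array at the middle dose. On the quantile scale all arrays at both doses lay above every vehicle array, but the middle dose (up to 10.33) and the high dose (from 10.13) overlapped. The change was 0.60 (SE 0.073, 1.51-fold, adjusted p = 2.48e-08) at the middle dose and 0.91 (SE 0.073, 1.88-fold, adjusted p = 1.16e-13) at the high dose, with 0.43 and 0.64 on the quantile scale. The gene's other probe set, 1375335_PM_at, differed from vehicle by 0.49 and 1.00 at these doses. The stress-inducible Hsp90aa1 could not be measured alone. A pair of bright probe sets listed for Hsp90aa1 together with a pseudogene averaged 8.54 and 8.10 on vehicle, 9.24 and 8.73 at the middle dose and 9.45 and 8.96 at the high dose. These are given as values only, because related Hsp90 sequences may share their probes.

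Of the cytosolic Hsp70 proteins, the constitutive Hspa8 (Hsc70) did not pass on both scales at any dose. Its lowest, median and highest values were 10.01, 10.44 and 10.84 on vehicle, 9.81, 10.48 and 11.37 at the low dose, 10.40, 10.75 and 11.15 at the middle dose and 10.22, 10.74 and 11.08 at the high dose. The groups overlapped widely, and no more than 4 arrays of any dose group passed the highest vehicle array. The change was 0.37 (SE 0.13, adjusted p = 0.0261) at the middle dose and 0.26 (SE 0.13, adjusted p = 0.0938) at the high dose on the deposited scale, against 0.20 (adjusted p = 0.295) and -0.01 (adjusted p = 0.955) on the quantile scale. The heat-inducible Hspa1a was dim, at 2.26 ± 0.29 on vehicle, 2.28 ± 0.33 at the low dose, 2.75 ± 0.30 at the middle dose and 2.66 ± 0.25 at the high dose. It rose at the middle dose by 0.49 (SE 0.13, adjusted p = 0.0022; 0.36 and 0.033 on the quantile scale), and at the high dose its change of 0.40 passed on the deposited scale (adjusted p = 0.00694) but not on the quantile scale (0.16, adjusted p = 0.316). Its call at the middle dose was lost in 4 of 17 fits, among them scaling to hybridisation controls (0.32, adjusted p = 0.146) and the poly-A covariate on the quantile scale (0.35, adjusted p = 0.0601). A probe set listed for both Hspa1a and Hspa1b averaged 2.20, 2.34, 2.84 and 2.55 over the 4 groups. Both heat-inducible probe sets thus sat near the array median in each group. Hspa1l, a testis Hsp70, rose at the high dose at a dim level by 0.46 on the deposited scale and 0.20 on the quantile scale.

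The Hsp110 proteins exchange nucleotide for Hsp70. Hsph1 (Hsp105) averaged 6.84 ± 0.34 on vehicle, 6.80 ± 0.73, 7.06 ± 0.34 and 6.82 ± 0.45 at the rising doses, and its changes of -0.04, 0.22 and -0.02 did not pass on the deposited scale (adjusted p = 1, 0.424 and 0.944). Its high-dose change on the quantile scale was -0.34 (adjusted p = 0.142). Hspa4 changed by 0.30 at the high dose (adjusted p = 0.0231) and by 0.02 (adjusted p = 0.911) on the quantile scale, and the dim Hspa4l rose by 0.57 and 0.33.

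Among the 54 promoters 5 held a longer heat shock element with 3 units, that is GAANNTTC followed by NNGAA, on either strand, which contains the shorter form. They were those of Hspa8, Hsph1, Dnaja1, Hspd1 and Hspe1, or 9.26% of the members against 0.798% of all promoters. The bases of Hspd1 and Hspe1 are again the same, counted for each gene. The sites of Hspa8 and Hsph1 are shown because these genes carry the letters and did not rise on both scales. On GRCr8, plus strand, they lie at chr8:50080293-50080322 and chr8:50080451-50080480 for Hspa8 and at chr12:10427324-10427353 for Hsph1, with matches in capitals.
Hspa8 distal element: gcgagcgtGAAAGTTCCAGAAcgctgcggt
Hspa8 proximal element: cggaacccTTCTGGAAGGTTCtaagacagg
Hsph1 element: gccgcagaTTCTGGAAAGTTCtcctcagta

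Cytosolic J domain proteins moved in both directions. Dnaja1 and Dnajb1, the main partners of cytosolic Hsp70, averaged 8.45 ± 0.30 and 7.03 ± 0.27 on vehicle. At the rising doses Dnaja1 averaged 8.36 ± 0.34, 8.72 ± 0.24 and 8.68 ± 0.31, and Dnajb1 averaged 7.13 ± 0.42, 7.44 ± 0.30 and 7.33 ± 0.20. The changes of Dnaja1 at the middle and high doses were 0.28 (SE 0.13, adjusted p = 0.0814) and 0.23 (SE 0.13, adjusted p = 0.114), and did not pass on either scale. Dnajb1 changed by 0.41 (SE 0.13, adjusted p = 0.0132) and 0.30 (SE 0.13, adjusted p = 0.0519), and by 0.16 and -0.03 on the quantile scale, with adjusted p of 0.392 and 0.888. Its second probe set, 1383302_PM_at, differed from vehicle by -0.21 at the high dose, opposite in sign to the first, and by -0.52 on the quantile scale, where both were below vehicle. Dnajc8, a nuclear protein tied to splicing, rose at the high dose by 0.54 (SE 0.075, adjusted p = 9.95e-08) and by 0.21 (adjusted p = 0.0126) on the quantile scale. At that dose 10 of 10 arrays lay above every vehicle array on the deposited scale and 7 of 10 on the quantile scale.

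The largest fall was that of Dnaja4, a type A co-chaperone known as a target of sterol regulation. Its lowest, median and highest values were 4.69, 5.09 and 5.42 on vehicle, 4.39, 4.97 and 5.64 at the low dose, 4.77, 5.13 and 5.43 at the middle dose and 3.93, 4.49 and 4.93 at the high dose. The first 3 groups overlapped, and 7 of 10 arrays at the high dose lay below every vehicle array. The change at the high dose was -0.55 (SE 0.12, adjusted p = 0.000159) and -0.81 on the quantile scale, and it was 0.05 (adjusted p = 0.748) at the middle dose. The gene's other probe sets differed by 0.08 and -0.14 at the high dose, or by -0.17 and -0.38 on the quantile scale. Dnajb5 averaged 5.21 ± 0.28 on vehicle, 5.27 ± 0.57, 5.42 ± 0.35 and 4.83 ± 0.30 at the rising doses and fell by 0.38 at the high dose (SE 0.17, adjusted p = 0.045), with -0.65 on the quantile scale, but its 2 dimmer probe sets differed by 0.32 and 0.25, and the mean of all its probe sets gave 0.06 (limma adjusted p = 0.467). Dnajc12, a partner of the aromatic amino acid hydroxylases, averaged 8.04 ± 0.29 on vehicle, 7.92 ± 0.43 at the low dose, 8.03 ± 0.35 at the middle dose and 7.80 ± 0.27 at the high dose. Its change at the high dose was -0.23 (SE 0.15, adjusted p = 0.167) on the deposited scale and -0.54 (adjusted p = 0.00301) on the quantile scale.

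**Figure D2:**
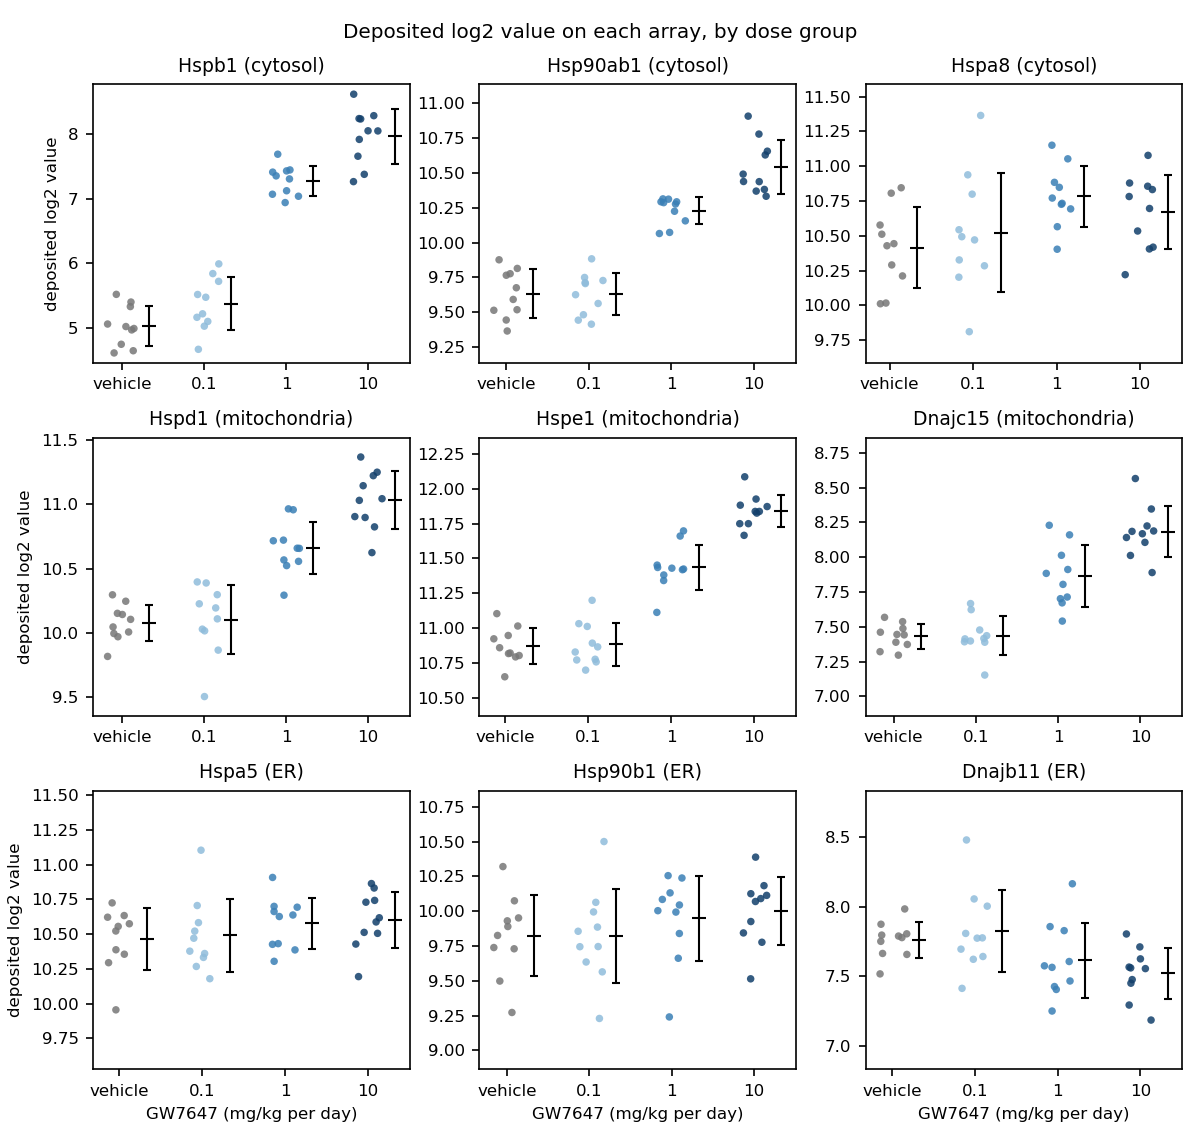
Each panel gives the deposited log2 value of 1 gene (vertical axis) on every array (points) by daily dose of GW7647 in mg/kg (horizontal axis), with the group mean ± SD in black beside the points (n = 10). The axis range differs between panels and does not start at 0. Hspb1, Hsp90ab1, Hspd1, Hspe1 and Dnajc15 step up from the low to the middle and from the middle to the high dose, Hspa8, Hspa5 and Hsp90b1 overlap across the groups, and Dnajb11 is lowest at the high dose.

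The mitochondrial chaperonin rose as a pair. Hspd1 (Hsp60) forms the barrel in which matrix proteins fold and Hspe1 (Hsp10) its lid. Hspd1 (1386894_PM_at) read 9.82, 10.08 and 10.30 (lowest, median and highest) on vehicle, 9.51, 10.15 and 10.40 at the low dose, 10.29, 10.66 and 10.97 at the middle dose and 10.63, 11.04 and 11.37 at the high dose. Hspe1 (1386898_PM_at) read 10.65, 10.84 and 11.10 on vehicle, 10.70, 10.85 and 11.20 at the low dose, 11.11, 11.43 and 11.70 at the middle dose and 11.67, 11.84 and 12.09 at the high dose. At the high dose all arrays of both genes lay above every vehicle array, and at the middle dose 9 of 10 did for Hspd1 and 10 of 10 for Hspe1. Hspd1 changed by 0.58 (SE 0.095, 1.5-fold, adjusted p = 5.43e-06) at the middle dose and 0.95 (SE 0.095, 1.94-fold, adjusted p = 4.67e-11) at the high dose. Hspe1 changed by 0.56 (SE 0.066, 1.48-fold, adjusted p = 1.17e-08) and 0.97 (SE 0.066, 1.96-fold, adjusted p = 1.09e-15). After quantile normalization the changes were 0.42 and 0.68 for Hspd1 and 0.38 and 0.72 for Hspe1. At the middle dose Hspd1 differed from vehicle by 0.71 over arrays 1 to 4 and by 0.50 over arrays 5 to 10, and Hspe1 by 0.68 and 0.49.

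The RefSeq start sites of these genes lie 290 bases apart on GRCr8, Hspd1 on the minus and Hspe1 on the plus strand, so that their promoter windows overlap. Within the overlap 3 matches to the short heat shock element run together over 18 bases, 48 bases from the start of Hspe1 and 225 from that of Hspd1. They are shown, in capitals, on the plus strand at chr9:64084256-64084285 because both members that rose side by side share them.
Hspd1-Hspe1 shared element: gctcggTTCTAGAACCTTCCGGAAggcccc

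The other mitochondrial members were less even. Dnajc15, a J protein of the inner membrane's import motor, read 7.30, 7.44 and 7.57 (lowest, median and highest) on vehicle, 7.15, 7.42 and 7.67 at the low dose, 7.54, 7.84 and 8.23 at the middle dose and 7.89, 8.18 and 8.57 at the high dose. The high-dose arrays did not overlap with vehicle. It rose by 0.43 (SE 0.076, adjusted p = 1.76e-05) at the middle dose and by 0.75 (SE 0.076, 1.68-fold, adjusted p = 5.93e-11) at the high dose, and by 0.20 (adjusted p = 0.0416) and 0.44 (adjusted p = 3.11e-06) on the quantile scale. The call at the middle dose was lost in 3 of 18 fits: scaling to hybridisation controls (0.26, adjusted p = 0.139), arrays 1 to 4 alone of that group on the quantile scale (0.26) and the test beyond 1.2-fold (adjusted p = 0.153). Its relative Dnajc19, of the same motor, averaged 9.32 ± 0.15 on vehicle, 9.27 ± 0.23, 9.57 ± 0.20 and 9.76 ± 0.21 at the rising doses. Its changes of 0.26 (adjusted p = 0.0214) and 0.45 (SE 0.09, adjusted p = 4.83e-05) at the middle and high doses passed on the deposited scale only, with 0.05 and 0.15 (adjusted p = 0.704 and 0.139) on the quantile scale. Dnajc11, of the cristae organising machinery, rose at the high dose by 0.50 (SE 0.087, adjusted p = 5.32e-06) and by 0.23 (adjusted p = 0.0185) on the quantile scale. The gene's dimmer probe sets differed by 0.25 and 0.31 at that dose, but by -0.01 and 0.04 on the quantile scale.

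Hspa9 (mortalin), the matrix Hsp70, averaged 6.92 ± 0.25 on vehicle, 6.86 ± 0.35, 7.20 ± 0.46 and 7.5 ± 0.55 at the rising doses. Its arrays spread widely at the high dose, from 6.33 to 8.39, where 7 lay above every vehicle array and 1 below every vehicle array. The change of 0.59 (SE 0.18, adjusted p = 0.00478) at the high dose was 0.27 (adjusted p = 0.202) on the quantile scale and so was not called. Dnaja3, its J partner, averaged 8.14 ± 0.089, 8.24 ± 0.075, 8.30 ± 0.14 and 8.40 ± 0.13 over the groups. Its change at the high dose was 0.25 (SE 0.056, adjusted p = 0.000169) on the deposited scale but -0.06 (adjusted p = 0.422) on the quantile scale, so its direction depended on the scale. Dnajc30, which sits at the ATP synthase, fell by 0.36 (SE 0.073, adjusted p = 4.67e-05) at the high dose from 7.02 ± 0.19 on vehicle, with 7.02 ± 0.19 at the low dose, 7.03 ± 0.14 at the middle dose and 6.66 ± 0.10 at the high dose. On the quantile scale the change was -0.68. A dim second probe set of the gene differed by 0.28, and the mean of both gave -0.04 (limma adjusted p = 0.395).

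A DR1, here AGGNCA repeated after 1 free base on either strand, the kind of direct repeat that PPAR-alpha binds with RXR, was found in 1 of the 54 member promoters and in 0.415% of all promoters. It lies before Dnajc19 (GRCr8, chr2:118873573-118873602, minus strand) and is shown because this is the class of element through which the receptor acts. No match in the other windows says only that these letters are not in them.
Dnajc19 DR1: aggagtccAGGGCAGAGGGCAtggcaagtc

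In the ER the main chaperones did not pass the threshold at any dose. Hspa5 (BiP), the Hsp70 of the ER lumen, read 9.96, 10.54 and 10.72 (lowest, median and highest) on vehicle, 10.18, 10.42 and 11.10 at the low dose, 10.30, 10.63 and 10.91 at the middle dose and 10.19, 10.60 and 10.86 at the high dose. Hsp90b1 averaged 9.82 ± 0.29 on vehicle, 9.82 ± 0.34, 9.95 ± 0.31 and 10.00 ± 0.25 at the rising doses. All 4 groups of both genes overlapped. The change at the high dose was 0.14 (SE 0.098, adjusted p = 0.213) for Hspa5 and 0.18 (SE 0.13, adjusted p = 0.221) for Hsp90b1, and -0.11 and -0.09 on the quantile scale, with adjusted p of 0.344 and 0.614. A p above the threshold does not show that a gene did not change.

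Among the J proteins of the ER lumen 1 fell on both scales. Dnajb11 (ERdj3), a soluble cofactor of BiP, read 7.52, 7.78 and 7.99 (lowest, median and highest) on vehicle, 7.41, 7.78 and 8.48 at the low dose, 7.25, 7.57 and 8.17 at the middle dose and 7.19, 7.56 and 7.80 at the high dose. Its groups overlapped, with 4 of 10 arrays at the high dose below every vehicle array. It changed by -0.24 (SE 0.10, adjusted p = 0.0367) at the high dose and by -0.56 (adjusted p = 1.06e-05) on the quantile scale, and passed in 15 of 16 fits, the exception being the test beyond 1.2-fold. Dnajc3 (p58IPK), which restrains the kinase PERK, averaged 9.43 ± 0.22 on vehicle, 9.39 ± 0.32, 9.32 ± 0.19 and 9.22 ± 0.15 at the rising doses, with changes of -0.21 (SE 0.10, adjusted p = 0.0605) and -0.51 (adjusted p = 5.72e-05) on the 2 scales. Dnajb9 (ERdj4), a strongly stress-induced J protein, averaged 7.19 ± 0.41, 7.17 ± 0.82, 7.38 ± 0.53 and 6.93 ± 0.35 and changed by -0.26 (SE 0.24, adjusted p = 0.35) and -0.58 (adjusted p = 0.039). In all, 1 of 12 ER members was lower at the high dose on the deposited scale and 7 of 12 on the quantile scale, where the background was 24.4%.

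A pair of membrane J proteins of the ER rose, Dnajb12 and Dnajc14. Dnajb12, which faces the cytosol and serves ER-associated degradation, read 6.02, 6.19 and 6.54 (lowest, median and highest) on vehicle, 6.09, 6.25 and 6.54 at the low dose, 6.32, 6.64 and 6.87 at the middle dose and 6.74, 7.14 and 7.37 at the high dose. At the high dose 10 of 10 arrays lay above every vehicle array on the deposited scale and 7 of 10 on the quantile scale. The change was 0.45 (SE 0.079, adjusted p = 1.94e-05) at the middle dose, where it did not pass on the quantile scale (0.20, adjusted p = 0.096), and 0.84 (SE 0.079, 1.79-fold, adjusted p = 1.12e-11) at the high dose, with 0.53 (adjusted p = 4.63e-06) on the quantile scale. A dimmer probe set of Dnajb12 differed by 0.38 at the high dose, and by 0.13 on the quantile scale. Dnajc14, another membrane J protein, rose by 0.68 (SE 0.12, adjusted p = 6.45e-06) at the high dose and by 0.42 on the quantile scale, although its other probe set differed by 0.05, and by -0.21 on the quantile scale. The relative of Dnajb12, Dnajb14, was dim and changed by -0.26 (adjusted p = 0.212) and -0.50 (adjusted p = 0.013) on the 2 scales.

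The ER stress response element (ERSE), CCAAT and CCACG with 9 free bases between them on either strand, was found in 3 of the 54 promoters (5.56%) and in 0.0657% of all promoters. The sites of Hspa5, Hsp90b1 and Dnajc3 are shown because none of these genes passed on both scales. They lie on GRCr8 at chr3:38452968-38452997 (plus strand), chr7:23012445-23012474 and chr7:23012341-23012370 (minus strand) and chr15:102432529-102432558 (plus strand), and the names give the position of the first matched base from the start site.
Hspa5 ERSE at -43: gttcaCCAATCGGAGGCCTCCACGacgggg
Hsp90b1 ERSE at -176: caaacCCAATCGAAAGGAGCCACGcttcgg
Hsp90b1 ERSE at -72: gagtgCGTGGTGAGGCACGATTGGtgggtt
Dnajc3 ERSE at -133: caaagCCAATCAGCGCCAACCACGacccag

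The 5 members outside these compartments were Dnajc5 (a vesicle protein), Dnajc6 (auxilin, which uncoats clathrin vesicles), Dnajc13 (of endosomes), Dnajc4 and Dnajc22. None passed on both scales at any dose. At the high dose their changes ran from 0.13 to 0.49 on the deposited scale and from -0.14 to 0.20 on the quantile scale, so that on the second scale they lay around 0.

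**Figure D3:**
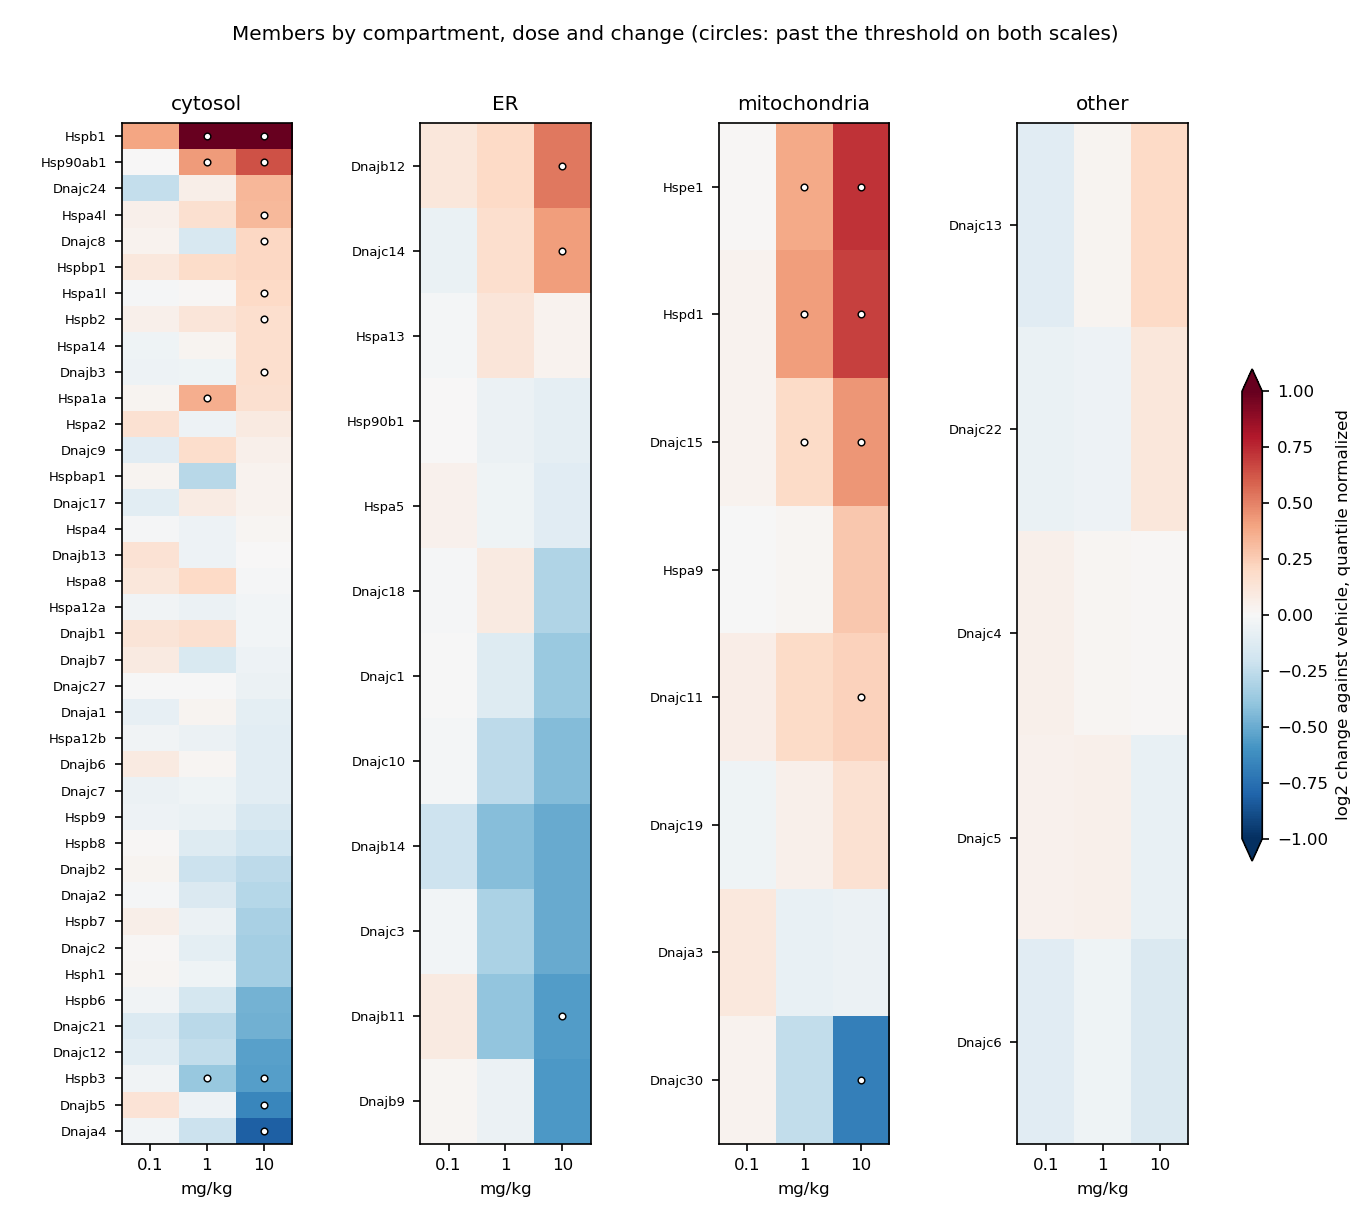
Colour gives the log2 change of each member against its vehicle mean on the quantile scale (scale from -1 to 1, with Hspb1 beyond it) at each dose, by compartment and ordered by the change at the high dose. White circles mark members past the threshold on both scales. Columns at the low dose are pale and hold no circle, and most ER rows are blue at the high dose while Dnajb12 and Dnajc14 are red.

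Much of the set was dim, and its rises need that context. Of 64 members 23 had no group mean at log2 5 or more, and 11 stayed below the array median in every group. Of the 13 members that rose at the high dose, Hspa4l, Hspa1l, Hspb2 and Dnajb3 were dim, and their deposited changes of 0.42 to 0.57 went with a change of 0.17 to 0.33 on the quantile scale. The J domain proteins, 38 of the 64, had 6 rises and 4 falls at the high dose (15.8% and 10.5%), and the 26 members without a J domain had 7 rises and 1 fall (26.9% and 3.85%), beside 20.4% and 7.69% of all genes.

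For the 4 leading members the step from the low to the middle dose was larger on the deposited scale than that from the middle to the high dose. This difference was not tested, and on that scale the median change of all genes was 0.20 in the first step and 0.09 in the second. On the quantile scale Hspd1 and Hspe1 changed by 0.36 to 0.38 in the first step and by 0.26 to 0.35 in the second. In the first step 5 members rose and none fell on both scales, against 10.5% and 2.95% of all genes, and 27 were higher on the deposited scale against 45.4%. On the quantile scale 5 were higher and 9 lower, against 10.5% and 11.4%. Hspb1 changed by 1.91 (SE 0.15, adjusted p = 8.79e-13), Hsp90ab1 by 0.60, Hspd1 by 0.56 and Hspe1 by 0.55. The fifth was Dnajc9, a histone chaperone, with 5.83 ± 0.13 on vehicle, 5.65 ± 0.37, 6.27 ± 0.23 and 6.18 ± 0.22 at the rising doses, which changed by 0.62 in this step but did not pass on both scales against vehicle. Without arrays 8 and 9 of the low-dose group the count past the threshold in this step went from 27 to 21 members on the deposited scale and from 14 to 10 on the quantile scale. In the second step 8 rose and 4 fell on both scales, against 8.55% and 5.98% of all genes. On the deposited scale 13 were higher and 6 lower (24.2% and 6.36% of all genes), and on the quantile scale 8 and 5 (8.58% and 9.74%). Hspb1 changed by a further 0.69 (SE 0.15, adjusted p = 0.000679), Dnajc8 by 0.44, Hspe1 by 0.41, Dnajb12 by 0.39, Hspd1 by 0.37 and Dnajc15 by 0.32. Hsp90ab1 changed by 0.31 (adjusted p = 0.0011) in this step but did not pass on the quantile scale (0.21, adjusted p = 0.0537). The members that fell in the second step were Dnaja4 (-0.61), Dnajb5 (-0.60), Dnajc30 (-0.37) and the dim Dnajc18 (-0.35). Over all 4 groups 43 members changed by the F test on the deposited scale, 28 on the quantile scale and 19 on both, against 71%, 47.9% and 34.2% of all genes. By compartment, 9 of 39, 4 of 12, 6 of 8 and 0 of 5 were among the 19.

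Genes that work with these chaperones but lie outside the name rule were read from lists drawn up for this purpose. Of 15 mitochondrial chaperones and proteases 5 rose at the middle dose (33.3%, all genes 11.1%) and 8 at the high dose (53.3%, all genes 20.4%), and none fell, with a median change at the high dose of 0.53 on the deposited scale and 0.27 on the quantile scale. Phb1, a prohibitin of the inner membrane, rose from 8.36 ± 0.19 on vehicle to 9.69 ± 0.14 at the high dose (2.52-fold, adjusted p = 9.99e-17), and Clpp, the matrix protease subunit, from 7.49 ± 0.14 to 8.67 ± 0.065 (2.27-fold, adjusted p = 9.55e-20). Spg7 and Clpb, a protease and a disaggregase, changed by 0.77 and 0.74. These changes passed on both scales.

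The list of ER folding enzymes and ER stress genes held members that rose and members that fell. Of 27 measured genes 3 rose and 5 fell at the high dose (11.1% and 18.5%, all genes 20.4% and 7.69%). On the deposited scale alone 8 were higher and 5 lower, and on the quantile scale alone 3 were higher and 13 lower, where 24.4% of all genes were lower. The median change was 0.08 on the deposited scale and -0.21 on the quantile scale. Sdf2l1, a partner of Dnajb11 in the ER lumen, fell by 0.59 (SE 0.13, adjusted p = 0.000144) and Sel1l, an adaptor of ER-associated degradation, by 0.46 (SE 0.082, adjusted p = 7.64e-06). Herpud1, another degradation factor, rose by 0.84 (SE 0.19, adjusted p = 0.000203) and Atf6, a sensor of ER stress, by 0.68 (SE 0.13, adjusted p = 3.81e-05). At the middle dose Atf6 rose and P4hb, a disulfide isomerase, fell, and no other gene of the list passed on both scales. At that dose 11.1% of all genes rose and 3.37% fell.

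In the cytosol, 7 of 21 partners of Hsp70 and Hsp90 rose at the high dose (33.3%) and 1, Bag5, fell (4.76%), beside 20.4% and 7.69% of all genes. Those that rose included Bag6 (0.76), the Hsp70-Hsp90 organiser Stip1 (0.73), the Hsp90 activator Ahsa1 (0.72) and the Hsp90 partner Sugt1 (0.69). Of 13 measured subunits of the cytosolic chaperonin and prefoldin 4 rose (30.8%) and none fell, namely Cct6a (0.72), Cct8 (0.68), Pfdn1 (0.63) and Cct3 (0.62). The median changes were 0.25 and 0.44 on the deposited scale and -0.05 and 0.12 on the quantile scale. Of the 4 measured genes of the heat shock factor list none rose, and the dim Hsf4 fell by 0.23 (adjusted p = 0.0281). At the middle dose 3 of the 21 partners (14.3%), 1 of the 13 subunits (7.69%) and none of the 4 rose. None of these genes fell at that dose, where 11.1% of all genes rose and 3.37% fell.

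**Figure D4:**
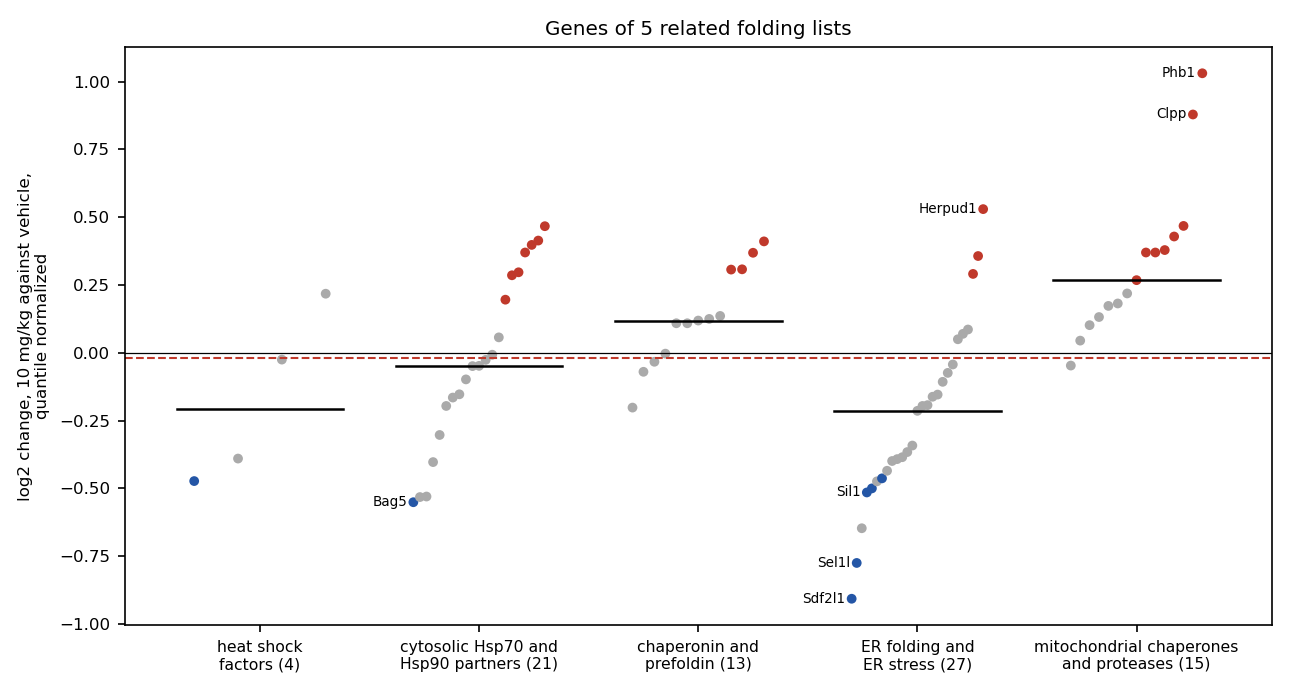
The vertical axis is the log2 change at the high dose against vehicle on the quantile scale for each measured gene of 5 lists (number of genes in brackets), ordered within each list. Red and blue points rose or fell on both scales, grey ones did not pass on both, the black bars are list medians and the dashed line is the median of all genes. Phb1 and Clpp stand highest, Sdf2l1 and Sel1l lowest, and the medians run from -0.21 to 0.27.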

How the data were processed

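Liver RNA of 40 rats was measured on 1 array each, and the labels' dose field gave the groups. Each deposited value is a log2 level of 1 probe set, for which the submitters' processing notes name GCRMA and Partek, with versions not given in the sources used here. Probe sets were named through the platform's annotation, and 1 probe set per gene, that with the highest mean over all arrays, left 13438 genes. Those values were fitted as deposited, without a pseudocount, in 1 linear model with the 4 groups (limma 3.58.1, lmFit and eBayes, R 4.3.3, 36 residual degrees of freedom). Tests were two-sided, with Benjamini-Hochberg adjustment over all genes of a comparison and a threshold of 0.05.

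The fit was repeated after quantile normalization, and "rose" and "fell" ask for both. Arrays carry no read depth; their number sets the precision. The labels name separate rats in each group. Promoter sequences are RefSeq's, on GRCr8. The fitting script was tested on simulated data with known changes. Figures were drawn with matplotlib 3.10.9 in Python 3.11.15.

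Given in full were 22 abundant chaperones and co-chaperones, of which 20 were measured, and, among members that reached log2 5 in a group and passed on both scales, up to 5 that rose and 5 that fell most at 10 mg/kg and up to 3 and 3 at 1 mg/kg. Of the related lists up to 4 genes with the largest changes were named. Other members, chosen after their values were seen, have 1 or 2 values. The members, compartments, lists and rules were chosen with earlier results of these data known.

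The alternatives were other normalizations (array median, hybridisation controls, poly-A controls as a covariate), a filter on dim genes, other rules for the probe set, other priors, only the groups compared, weighted arrays, a block for the replicate number, leaving out arrays that stood apart, and a test against 1.2-fold.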

Additional observations from a re-analysis of the deposited data

Results flagged for a closer look

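In 96 groups of 10 arrays, the 24 members given in full at each of 4 doses, the highest and lowest arrays were set against the rest by the gap to the nearest array over the whole range (Dixon's test). Of these groups 5 had an array that stood apart, where chance alone gives about 1 in 20. Array 8 of the 0.1 mg/kg group was lowest for Hsph1, at 4.99 with the next array at 6.36, and for Hspa9, at 5.91 with the next at 6.76; it is also 1 of the 2 arrays with the lowest upper quartile. Vehicle array 1 was lowest for Dnajc3, at 8.92 with the next at 9.28. In the 1 mg/kg group array 3 was lowest for Dnajb12 (6.32, next 6.58), and array 8 was highest for Dnajc30 (7.33, next 7.11).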

How the results depend on the processing

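On the deposited scale 43 members changed over the 4 groups, 27 between 0.1 and 1 mg/kg and 19 between 1 and 10 mg/kg, 18 and 32 were higher and 1 and 5 lower at 1 and 10 mg/kg against vehicle, and none passed at 0.1 mg/kg in any fit. In that order of 7 counts, quantile normalization gave 28, 14, 13, 6, 13, 5 and 18, quantile normalization with the poly-A covariate 24, 14, 13, 6, 14, 5 and 13, a shift to 1 median 33, 17, 19, 11, 14, 2 and 16, and scaling to hybridisation controls 21, 7, 8, 5, 10, 1 and 10. Leaving out dim genes gave 28 over the groups, 11 between 1 and 10 mg/kg, 20 higher at 10 mg/kg and 0 lower at 1 mg/kg, a test beyond 1.2-fold 5, 0, 4, 14, 0 and 1 for the last 6 counts, and the probe set of largest interquartile range 2 lower at 1 mg/kg. With arrays 1 to 4 alone of the 1 mg/kg group the steps gave 17 and 9, and 0 members were lower at 1 mg/kg. Fits added after seeing the data were quantile normalization without arrays 8 and 9 of the 0.1 mg/kg group (28, 10, 15, 6, 13, 6 and 18) and with arrays 1 to 4 alone (27, 8, 7, 5 higher and 2 lower at 1 mg/kg). The processing moved the counts of all genes too. Over the 4 groups 71% of all genes changed on the deposited scale and 47.9% on the quantile scale. For the other fits the share of all genes is not given, so a lower count there is not a trait of the set.

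The labels state no pairing of rats by replicate number, and the arrays do not settle whether there was one. Deviations of same-numbered arrays correlated at -0.32 to 0.48, with means from -0.03 to 0.22 by number. Those of different numbers correlated at -0.46 to 0.5, with a mean of -0.01. Of 40 arrays 8 correlated best with their own number, and the count that chance would give was not computed. With the replicate block 45 members changed over the groups and 34 were higher and 5 lower at 10 mg/kg, and with block and quantile normalization, also added after seeing the data, 28, 14, 16, 6, 13, 5 and 20 for the 7 counts.

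Hspb1, Hsp90ab1, Hspd1 and Hspe1 passed in all 18 fits at 1 mg/kg and all 16 at 10 mg/kg, with changes at 10 mg/kg of 2.63 to 2.94, 0.60 to 1.00, 0.68 to 0.95 and 0.72 to 0.99. Of 1125 alternative values for the changes of 24 named members, 878 kept sign and side of the threshold, 71 no longer passed, 36 newly passed and 140 changed sign, over 21 members. In 124 of these neither value passed, among them values of Hspa5, Hsp90b1, Hspa8, Dnaja1 and Dnajb1 at 10 mg/kg. The other 16 were Dnaja3 at 1 mg/kg (-0.01 with hybridisation controls, -0.08 with quantile normalization, also without arrays 8 and 9 and with the block, and -0.06 with the poly-A covariate), Dnaja3 at 10 mg/kg (-0.06, -0.06, -0.06 and -0.02 for the last 4 of these), Dnajb5 at 10 mg/kg (0.06 as the mean of its probe sets), Dnajc30 at 1 mg/kg (-0.24 with quantile normalization, also without arrays 8 and 9 and with the block, and -0.25 with the poly-A covariate) and Hspb8 at 10 mg/kg (-0.27 with quantile normalization and the poly-A covariate, -0.20 with the block). Fewer genes were tested without dim genes; for the other changes the cause was not tested. Dim probe sets limit what can be said of the 23 dim members.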
